A study of Mus musculus with 15 samples.

Results

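This account follows 33 mouse genes of the endoplasmic reticulum (ER) chaperone and unfolded protein response system in liver RNA. They were taken by name, with earlier results of these data known, and each matched 1 Ensembl ID among the 56980 gene IDs of the count table. All 33 passed the filter on low counts and were among the 14627 genes tested, so none was lost to it. The livers came from wild-type male C57Bl/6J mice that were 15 weeks old when they were placed for 9 months on a control diet with 10% fat (label Control_ALF), a high-fat diet with 60% fat (HFD_ALF) or a ketogenic diet with 89.9% fat (Keto_ALF). The labels do not say what the suffix stands for. Each diet had 5 libraries of poly(A) RNA. Control replicate 1, which the submitters describe as contaminated, was not used, so n = 4 for control and n = 5 for each fat-rich diet. The labels do not say that each library is 1 mouse, and the tests therefore weigh differences against the spread of these libraries, which may be partly technical.

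The ER is where secreted and membrane proteins enter the secretory route, fold, gain disulfide bonds and sugars, and are either exported or returned to the cytosol to be degraded. When unfolded proteins build up in its lumen, the membrane sensors IRE1 (gene Ern1), PERK (Eif2ak3) and ATF6 (Atf6) start the unfolded protein response, in which IRE1 splices the Xbp1 mRNA and the factors XBP1 and ATF6 switch on chaperone and degradation genes. Hepatocytes secrete most plasma proteins and are rich in this machinery.

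Levels are given as CPM (read counts relative to library size, with TMM, a correction for differences in RNA composition), as means ± SD with n = 4 control, n = 5 high-fat and n = 5 ketogenic libraries. CPM is not corrected for transcript length, so levels are compared between diets and never between genes. A gene is said to have fallen or risen where its p-value in edgeR's quasi-likelihood test, adjusted with the Benjamini-Hochberg method over all tested genes, was under 0.05. Fold changes are on the log2 scale with the SE in the same unit. Values in single libraries are listed in replicate order, from 2 to 5 for control and from 1 to 5 for the fat-rich diets.

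Total counts ran from 16329425 to 25349148 over the 14 libraries. Hepatocyte markers (10 genes) made up between 12.8% and 15.1% of the counts in control, between 10.1% and 12.3% in high-fat and between 8.68% and 12.02% in ketogenic livers. Of these 10 markers, 1 fell in high-fat livers and 3 in ketogenic ones. In bulk tissue, fewer cells of a type and less RNA per cell cannot be told apart. Transcripts of 24 pancreatic acinar markers, from cells rich in ER chaperones, were present at 0.213% of counts in control replicate 2 and at 0.0027% to 0.0195% in the other 3 controls, between 0.0136% and 0.0919% in high-fat and between 0.00087% and 0.0454% in ketogenic livers, where 2 of the 24 were at 0 in every library. None of the 21 tested acinar markers passed in either fat-rich diet. B and plasma cell markers (12 genes) made up 0.0163% to 0.0277%, 0.00807% to 0.0256% and 0.0040% to 0.0413% of counts in control, high-fat and ketogenic livers, and 1 of the 10 tested fell in high-fat livers. Of 8 stellate cell and fibroblast markers, 3 rose in high-fat and 4 in ketogenic livers (between 0.0261% and 0.03% of counts in control, 0.0375% and 0.0554% in high-fat, and 0.0309% and 0.0947% in ketogenic libraries). Of 10 macrophage markers 1 rose in high-fat livers, and 2 rose and 1 fell in ketogenic ones (0.0229% to 0.036%, 0.0283% to 0.054% and 0.0215% to 0.0947% in the same order). Of 6 sinusoidal endothelial markers 1 fell in each diet. Over all tested genes, 6.95% rose and 5.01% fell in high-fat livers, and 7.47% rose and 4.6% fell in ketogenic ones. The highest ketogenic shares of macrophage, fibroblast and B cell markers were those of replicate 5. Ketogenic replicates 1 to 4 lay at 0.0215% to 0.0307%, 0.0309% to 0.0545% and 0.0040% to 0.0099% in that order. Marker calls without replicate 5 were not counted. The part of these markers in the results that follow was not tested.

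One library stood apart from its diet in the genes followed here. Taken as the median over the 33 genes of the log2 ratio to the control mean, the high-fat libraries lay between -0.92 and -0.51 and ketogenic replicates 1 to 4 between -0.45 and 0.014, while ketogenic replicate 5 lay at -0.80, inside the high-fat range. The same median over all tested genes was 0.033 in that library. It held the lowest ketogenic level of 27 of the 33 genes, against 26.8% of all tested genes, and was at or below the highest high-fat library in 31 of them, where the other ketogenic libraries were so in 4 to 14. Over all tested genes that share was 72% in replicate 5 and 74.9% to 82.1% in the other ketogenic libraries. The same library had the lowest share of hepatocyte markers (8.68%) and the highest shares of macrophage markers (0.0947%), stellate cell and fibroblast markers (0.0947%) and B and plasma cell markers (0.0413%) among all libraries. Their part in its low chaperone levels was not tested. Of the 33 genes, 25 lay inside the high-fat range in replicate 5 and 3 to 12 in the other ketogenic libraries. Over all tested genes the share inside that range was 50.7% in replicate 5 and 49.1% to 65.8% in the others. The diet label of replicate 5 was not tested, so whether the label is right is not known. Each ketogenic value that includes this library depends on it. The counts of the 33 genes are given with and without it.

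**Figure D1:**
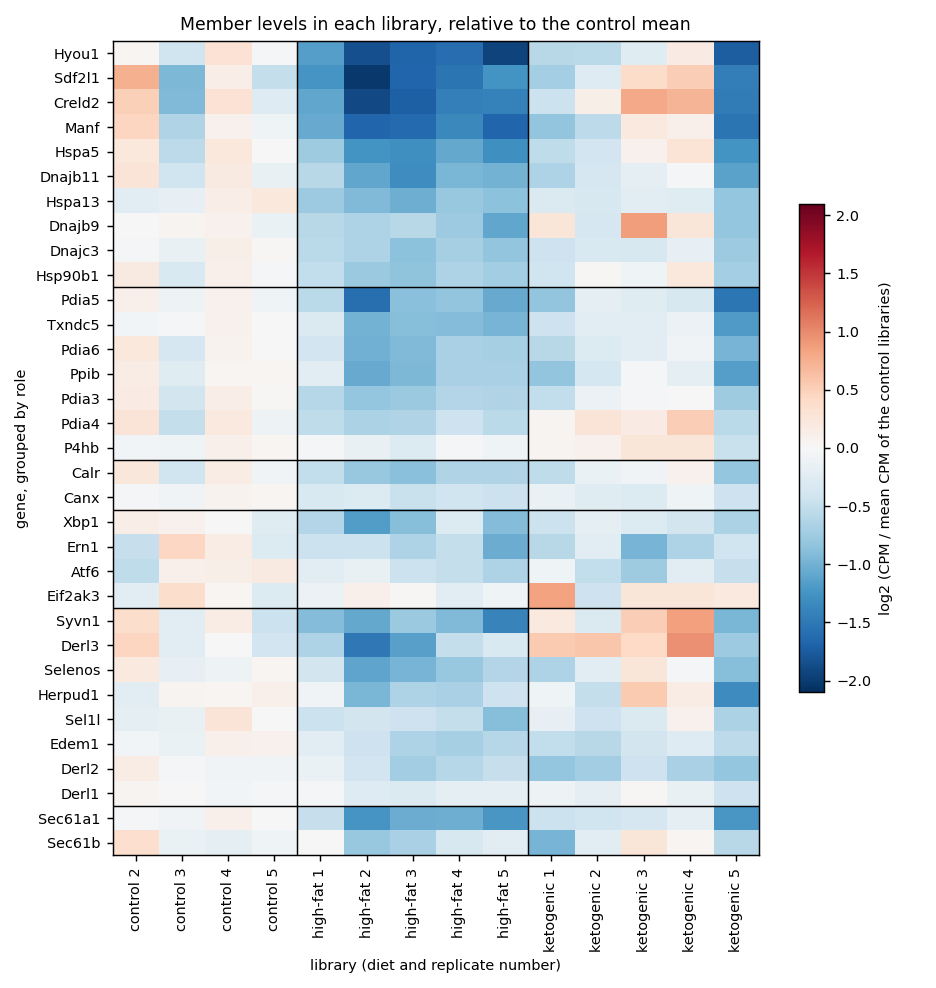
Levels of the 33 genes (rows, grouped by role) in the 14 libraries (columns), as the log2 ratio of CPM to the mean CPM of the control libraries; blue is lower and red is higher. The 5 high-fat columns and ketogenic replicate 5 are mostly blue, and ketogenic replicates 3 and 4 lie near the controls.

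High-fat livers had less mRNA of most of these genes than control livers. Of the 33, 24 fell and none rose, where 5.01% of all tested genes were lower and 6.95% higher. The 33 were chosen with earlier results of these data known, so the contrast with all tested genes is no independent test. At an unadjusted p under 0.05, 28 were lower and none higher, and DESeq2, another count test, called 26 lower and none higher (7.77% and 8.92% of all tested genes). The fitted fold change was below 0 in all 33, with a median of -0.72 on the log2 scale against 0.0075 over all tested genes. In 23 of the 33 the control and high-fat libraries did not overlap, with control higher, against 6.79% of all tested genes; no member lay wholly above control, against 9.45%. Scaling by library totals, which shifts the median gene by 0.127 upward, left 21 of the 33 lower and none higher (420 lower and 1302 higher over all genes, against 733 and 1016 with TMM).

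The count of 24 changed with which library was left out, and it was again 24 without high-fat replicate 1. It was 14 when control replicate 4 was left out, and also 14 for high-fat replicate 3. Leaving out control replicate 2, the control with the most acinar RNA, gave 18 lower and none higher (5.11% and 6.15% of all genes tested then), with a median log2 fold change of -0.65. Library numbers in the titles fall into a range up to 9 and a range from 13, and with the 3 libraries of each diet in the upper range alone 9 of the 33 fell and none rose, against 3.19% and 4.4% of all genes tested then.

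Among the lumenal chaperones and their helpers 9 of 10 fell in high-fat livers, with a median log2 fold change of -1.04. Hyou1 encodes a large HSP70-like chaperone that also acts as a nucleotide exchange factor for BiP. Its levels were 357, 261, 430.0 and 343 CPM in control, 156, 97.1, 108, 115 and 89.9 CPM in high-fat and 231, 234, 291, 393 and 105 CPM in ketogenic livers. Every high-fat library lay below every control, and the fitted level was 0.325 times that of controls (log2 fold change -1.62 ± 0.28 (SE), adjusted p = 0.00194). Ketogenic replicates 1 to 4 were all above the highest high-fat library, and replicate 5 was within the high-fat range.

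Hspa5 encodes BiP, the HSP70 chaperone of the ER lumen and the main inhibitor of the stress sensors. Its levels were 1543, 906, 1556 and 1319.7 CPM in control, 796, 557, 542, 633 and 544 CPM in high-fat and 917, 1011, 1409.9, 1625 and 561 CPM in ketogenic livers. High-fat libraries did not overlap the controls, although high-fat replicate 1 and control replicate 3 came close (log2 fold change -1.12 ± 0.25 (SE), adjusted p = 0.0103). The ketogenic livers spread from below the lowest control to above the highest one (-0.27 ± 0.25 (adjusted p = 0.515) against control).

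**Figure D2:**
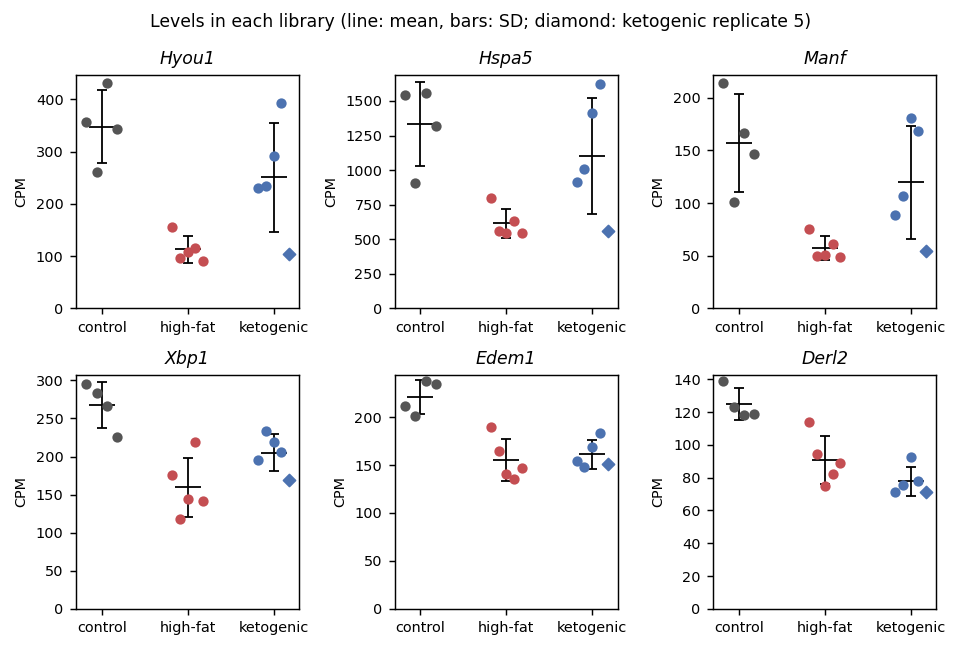
CPM (y axis, from 0) of 6 genes in each library, by diet; points are libraries, the line is the mean, bars are the SD, and the diamond is ketogenic replicate 5. Hyou1, Hspa5 and Manf were low in all 5 high-fat libraries and in ketogenic replicate 5, while Edem1 and Derl2 were low in both fat-rich diets.

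Manf, a small secreted protein that is retained in the ER by BiP and released under stress, stood at 214, 101, 166 and 147 CPM in control, 75.6, 49.7, 50.6, 61.4 and 49.2 CPM in high-fat and 88.4, 107, 181, 168 and 54.2 CPM in ketogenic livers. No high-fat library reached the lowest control (log2 fold change -1.45 ± 0.30 (SE), adjusted p = 0.00657). Dnajb11, a J-domain cochaperone of BiP, had 144, 89.03, 137 and 107 CPM in control, 79.6, 56.05, 48.3, 61.1 and 59.7 CPM in high-fat and 76.3, 93.2, 104, 117 and 54.8 CPM in ketogenic livers. Here too the groups were apart, with high-fat replicate 1 nearest to the controls (log2 fold change -0.97 ± 0.20 (SE), adjusted p = 0.00657).

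Hspa13 and Dnajc3 had the smallest adjusted p-values of the 33 genes in this comparison. Hspa13 encodes a microsomal HSP70-like protein (STCH), and its libraries gave 42.98, 44.2, 54.9 and 58.2 CPM in control, 29.6, 26.5, 24.6, 28.8 and 27.6 CPM in high-fat and 40.7, 39.8, 43.1, 41.99 and 28.5 CPM in ketogenic livers. The 5 high-fat values spanned only 24.6 to 29.6 CPM and lay clear of all controls (log2 fold change -0.87 ± 0.13 (SE), adjusted p = 0.000648). Dnajc3, the J-domain cochaperone P58IPK that also inhibits eIF2-alpha kinases, gave 318, 291, 353 and 328 CPM in control, 219, 206, 178, 198 and 182 CPM in high-fat and 239, 259.8, 255, 286 and 189 CPM in ketogenic livers. It fell in high-fat livers (log2 fold change -0.72 ± 0.12 (SE), adjusted p = 0.00152) and also in ketogenic ones (-0.39 ± 0.12 (adjusted p = 0.0448)). The ketogenic call was lost in 13 of the 18 alternatives run, among them the fit without ketogenic replicate 5 (adjusted p = 0.0595).

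Of the remaining members of this class, Sdf2l1 and Creld2 varied most between controls, with an SD of 50.9% and 39.9% of the mean. Hsp90b1 and Dnajb9 varied less (14.9% and 6.7%). Sdf2l1, part of the BiP and J-protein complex, averaged 37.8 ± 19.3 CPM in control and 13.2 ± 2.86 CPM in high-fat livers (-1.51 ± 0.39 (adjusted p = 0.0237)), with control libraries from 19.6 to 63.2 CPM. Creld2, a stress-induced disulfide isomerase-like protein, went from 76.1 ± 30.4 to 27.2 ± 5.85 CPM (-1.48 ± 0.39 (adjusted p = 0.0270)). The calls were lost in 8 and 9 of the 18 alternatives, leaving out control replicate 2 or 4 among them. Hsp90b1, the HSP90 of the ER (GRP94), fell from 1026 ± 153 to 631 ± 56.3 CPM (-0.70 ± 0.17 (adjusted p = 0.0149)), a call lost without control replicate 4 and in the upper range of library numbers. Dnajb9, the BiP cochaperone ERdj4 that returns BiP to IRE1, had mean levels of 84.1 ± 5.64 CPM in control and 51.1 ± 7.04 CPM in high-fat livers and did not pass (-0.72 ± 0.24 (adjusted p = 0.0662)).

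Several of these genes carry the ER stress response element (ERSE) in their promoters, the sequence that ATF6 and XBP1 bind together with the factor NF-Y. RefSeq promoter windows of build GRCm38.p6, from 250 bases before to 50 after a gene start, were matched for 27 of the 33 genes. Hyou1, Hspa13, Manf, Sec61a1, Atf6 and Derl1 had no window and enter none of the promoter counts. Of these, Hyou1, Hspa13, Manf and Sec61a1 fell in high-fat livers. The ERSE was searched on both strands as CCAAT and CCACG with any 9 bases between them, its short form ERSE-II as ATTGG and CCACG with any 1 base between them, and the core of the unfolded protein response element as TGACGTG; in these genes no match of one overlapped a match of another. An exact ERSE was in the windows of 9 of the 27 genes and in 0.119% of all 32851 windows, an ERSE-II in 2 of 27 and 0.0365%, and the third motif in 2 of 27 and 2.01%. Members were counted by gene, with a match in any of its windows, and the shares over all were counted by window with the members included. The 2 are therefore not in the same unit. A match describes the letters only, and no binding was measured. The submitters' processing notes name build GRCm39 for the counts, so these positions are not on the build of the count table. The elements are shown because the ERSE recurs in 9 of the 27 genes and the ERSE-II in 2. The ERSE-II of Dnajb11 lies after the gene start. Each element is read in the direction of its motif, with the fixed letters in capitals and 6 flanking bases on each side.
Calr: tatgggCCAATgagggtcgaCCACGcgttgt
Canx: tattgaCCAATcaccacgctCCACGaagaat
Creld2: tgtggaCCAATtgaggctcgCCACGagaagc
Derl3: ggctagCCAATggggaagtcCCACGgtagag
Dnajc3: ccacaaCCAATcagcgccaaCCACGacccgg
Hsp90b1, far element: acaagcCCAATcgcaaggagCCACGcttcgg
Hsp90b1, near element: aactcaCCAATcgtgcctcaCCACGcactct
Hspa5: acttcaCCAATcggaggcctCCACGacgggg
Pdia6: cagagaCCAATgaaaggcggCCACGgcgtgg
Syvn1: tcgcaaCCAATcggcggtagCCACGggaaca
Dnajb11, ERSE-II: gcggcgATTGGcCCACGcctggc
Herpud1, ERSE-II: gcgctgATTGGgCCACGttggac

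Of the 11 genes with an exact ERSE or ERSE-II, 9 fell in high-fat livers, with a median log2 fold change of -0.73, and 1 fell in ketogenic livers, with a median of -0.24. The exceptions in high-fat livers were Derl3 and Herpud1. Among the 16 members whose window held neither element, 11 fell in high-fat livers (median -0.64) and 2 in ketogenic ones (median -0.27). The difference between both sets was not tested, and their fold changes overlapped, from -1.48 to -0.39 and from -1.51 to -0.063. A further 38 genes outside the set hold either element in a window. Of the 20 of these that were tested, 1 rose and 3 fell in high-fat livers, with a median of 0.069. In ketogenic livers none of the 20 rose and 2 fell, with a median of 0.059. The shares over all tested genes were 6.95% higher and 5.01% lower in high-fat livers, and 7.47% and 4.6% in ketogenic ones. The 3 that fell in high-fat livers were Ero1b, an oxidase that passes disulfide bonds to the isomerases, Krtcap2, a subunit of the oligosaccharyltransferase, and the RNA-binding protein gene Hnrnpa3. All these genes were named after their values were seen.

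The 250 bases before the start of 4 of these genes are given in full, read along the gene 5′ to 3′, with matches to any of the 3 motifs in capitals. They were chosen to show the arrangements found: an ERSE near the start with a TGACGTG further out (Hspa5), a pair of ERSEs in opposite orientation (Hsp90b1), a single reversed ERSE (Creld2) and an ERSE-II (Herpud1). Hspa5 lies at chr2:34771840-34772089, plus strand, Hsp90b1 at chr10:86705445-86705694, minus strand, Creld2 at chr15:88819396-88819645, plus strand and Herpud1 at chr8:94386179-94386428, plus strand, all in GRCm38.p6. The ERSE of Hspa5 spans bases -65 to -47 from the start and the ERSE-II of Herpud1 bases -52 to -42.
Hspa5: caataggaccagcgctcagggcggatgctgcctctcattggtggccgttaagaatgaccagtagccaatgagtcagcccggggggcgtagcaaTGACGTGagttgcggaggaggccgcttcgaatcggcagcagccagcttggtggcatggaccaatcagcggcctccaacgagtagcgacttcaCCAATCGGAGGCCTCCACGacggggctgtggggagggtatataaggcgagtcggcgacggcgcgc
Hsp90b1: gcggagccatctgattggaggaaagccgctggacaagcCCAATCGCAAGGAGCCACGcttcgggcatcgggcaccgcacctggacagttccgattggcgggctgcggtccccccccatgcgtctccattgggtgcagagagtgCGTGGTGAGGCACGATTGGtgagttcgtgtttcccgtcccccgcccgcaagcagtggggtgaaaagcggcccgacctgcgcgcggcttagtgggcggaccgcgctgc
Creld2: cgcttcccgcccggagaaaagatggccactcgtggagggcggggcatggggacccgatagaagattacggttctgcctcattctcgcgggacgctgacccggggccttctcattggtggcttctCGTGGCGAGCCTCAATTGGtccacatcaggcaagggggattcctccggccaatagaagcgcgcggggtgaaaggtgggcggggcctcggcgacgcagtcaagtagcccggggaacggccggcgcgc
Herpud1: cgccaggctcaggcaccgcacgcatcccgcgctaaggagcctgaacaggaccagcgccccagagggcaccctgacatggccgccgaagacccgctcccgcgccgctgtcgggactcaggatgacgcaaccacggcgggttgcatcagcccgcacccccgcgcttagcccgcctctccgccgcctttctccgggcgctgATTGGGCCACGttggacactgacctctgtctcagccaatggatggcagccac

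Disulfide isomerases form and reshuffle disulfide bonds in new proteins. Of 7 genes in this class, which includes the prolyl isomerase gene Ppib, 5 fell in high-fat livers (median log2 fold change -0.69), and Pdia4 and P4hb did not pass. Pdia3 encodes ERp57, the isomerase that works with calnexin and calreticulin on glycoproteins. Its libraries were at 575, 391, 567 and 519 CPM in control, 341, 291, 298, 334 and 331 CPM in high-fat and 359.6, 469, 499, 518 and 305 CPM in ketogenic livers. All high-fat libraries lay below all controls (log2 fold change -0.68 ± 0.16 (SE), adjusted p = 0.0122). Txndc5, a thioredoxin domain isomerase, was at 269, 272, 300.2 and 282 CPM in control, 227, 142, 150.3, 149 and 142 CPM in high-fat and 207, 242, 239, 258 and 123 CPM in ketogenic livers. High-fat replicate 1 stood far above the other high-fat libraries and still lay below the lowest control (-0.79 ± 0.19 (adjusted p = 0.0137)).

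Pdia6, an isomerase that also binds BiP and damps IRE1 signalling, had 340.1, 227, 308 and 289 CPM in control, 219.7, 144, 152, 181 and 179 CPM in high-fat and 194, 239, 250.4, 276 and 149 CPM in ketogenic livers. High-fat replicate 1 was just under the lowest control, replicate 3 (log2 fold change -0.73 ± 0.18 (SE), adjusted p = 0.0147). Pdia5 went from 84.6 ± 6.62 to 43.9 ± 10.6 CPM (-0.95 ± 0.23 (adjusted p = 0.0156)). Ppib, which encodes the ER cyclophilin B, went from 244 ± 28.6 to 151 ± 34.5 CPM (-0.69 ± 0.21 (adjusted p = 0.0403)); its call was lost in 11 of the 18 alternatives run, leaving out control replicate 2 among them. The other two genes of the class did not pass. Pdia4, a large isomerase, was at 227 ± 52.3 against 154 ± 9.92 CPM (-0.56 ± 0.18 (adjusted p = 0.0596)). P4hb, the founding disulfide isomerase, which is also a subunit of prolyl 4-hydroxylase and of the microsomal triglyceride transfer protein, was at 1464 ± 91.2 against 1351 ± 97.4 CPM (-0.12 ± 0.14 (adjusted p = 0.635)), and with library totals its fold change was 0.0082.

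Both lectin chaperones fell in high-fat livers. They hold glycoproteins that carry a trimmed sugar until these are folded. Calr, soluble calreticulin, fell from 798 ± 153 to 498 ± 49.7 CPM (-0.68 ± 0.18 (adjusted p = 0.0211)), and its membrane-bound relative Canx from 404 ± 18.6 to 308 ± 17.3 CPM (-0.39 ± 0.10 (adjusted p = 0.0179)). Leaving out control replicate 4 or high-fat replicate 3 cost both calls.

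Of the 4 sensor and transcription factor genes, 2 fell in high-fat livers, and differences between these genes were not tested. Xbp1, the transcription factor gene whose mRNA IRE1 splices, gave 295, 284, 267 and 226 CPM in control, 175, 118, 145, 219 and 142 CPM in high-fat and 196, 234, 219, 206 and 169.6 CPM in ketogenic livers. High-fat replicate 4 was just below the lowest control, replicate 5, and the gene fell (log2 fold change -0.75 ± 0.16 (SE), adjusted p = 0.00688). Gene counts do not separate the spliced from the unspliced Xbp1 mRNA. Ern1, the gene of IRE1-alpha itself, gave 72.8, 139, 114 and 83.9 CPM in control, 74.97, 74.9, 65.6, 72.6 and 49.8 CPM in high-fat and 68.1, 87.5, 51.8, 65 and 76.1 CPM in ketogenic livers. Its adjusted p was 0.04997 (log2 fold change -0.60 ± 0.19 (SE)), 2 high-fat libraries lay above the lowest control, and the call was lost in 11 of the 18 alternatives.

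Atf6, the precursor of the cleaved transcription factor, gave 66.8, 105, 106 and 110.5 CPM in control, 82.5, 86.98, 70.9, 68.5 and 61.7 CPM in high-fat and 91.3, 67.8, 58.1, 82.6 and 69.6 CPM in ketogenic livers. Control replicate 2 was the lowest control by far and lay below 4 of the 5 high-fat libraries (log2 fold change -0.39 ± 0.16 (SE), adjusted p = 0.133). Eif2ak3, the gene of PERK, gave 17.5, 26.2, 20.8 and 16.7 CPM in control, 18.7, 21.8, 20.6, 17.1 and 19 CPM in high-fat and 36.5, 14.97, 24.3, 24.2 and 23.4 CPM in ketogenic livers. The high-fat libraries lay within the control range (-0.06 ± 0.20 (adjusted p = 0.872)), and the fold change was 0.063 with library totals.

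Among genes of ER-associated degradation, which moves misfolded proteins to the cytosol for the proteasome, 5 of 8 fell in high-fat livers (median log2 fold change -0.53). Edem1 encodes a lectin that steers misfolded glycoproteins to degradation. Its values were 212, 201, 238 and 235 CPM in control, 189.9, 164, 141, 136 and 147 CPM in high-fat and 155, 148, 169, 183 and 151 CPM in ketogenic livers. Both fat-rich diets were wholly below control for this gene (-0.51 ± 0.12 (adjusted p = 0.0103) for high-fat and -0.46 ± 0.12 (adjusted p = 0.0168) for ketogenic). Derl2, a membrane channel component of the pathway, had 139, 123, 118 and 119 CPM in control, 114, 94.3, 75.05, 82.1 and 89.3 CPM in high-fat and 71.3, 75.4, 92.5, 78.1 and 71.4 CPM in ketogenic livers. Again no fat-rich library reached the lowest control (-0.46 ± 0.12 (adjusted p = 0.0237) for high-fat and -0.68 ± 0.12 (adjusted p = 0.00175) for ketogenic). The high-fat call of Derl2 was lost in 5 of the 18 alternatives, when control replicate 2 or 3 or high-fat replicate 3, 4 or 5 was left out.

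Syvn1, the ubiquitin ligase HRD1 at the centre of the pathway, went from 118 ± 29.8 to 59.01 ± 9.24 CPM (-1.004 ± 0.28 (adjusted p = 0.0326)). Its partner Sel1l, which stabilises HRD1, went from 198 ± 30.1 to 138 ± 18.1 CPM (-0.52 ± 0.15 (adjusted p = 0.0361)), and Selenos, a selenoprotein that recruits the p97 ATPase, from 58.5 ± 6.73 to 34.7 ± 7.04 CPM (-0.75 ± 0.20 (adjusted p = 0.0249)). These 3 calls were each lost in 8 to 10 of the 18 alternatives. Herpud1, a stress-induced scaffold of the ligase complex, did not pass, at 589.9 ± 60.9 against 409 ± 96.9 CPM (-0.53 ± 0.28 (adjusted p = 0.229)). Neither did Derl1, at 143 ± 4.74 against 125 ± 8.93 CPM (-0.20 ± 0.10 (adjusted p = 0.207)), nor the weakly expressed Derl3, at 2.18 ± 0.586 against 1.28 ± 0.399 CPM (-0.76 ± 0.33 (adjusted p = 0.147)).

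The translocon is the channel through which new proteins enter the ER. Sec61a1, its pore subunit, had 220.1, 213, 242 and 224 CPM in control, 160.2, 95.4, 109.7, 110.5 and 96.8 CPM in high-fat and 165, 167, 176, 197 and 96.5 CPM in ketogenic livers. Even high-fat replicate 1, the highest of its diet, was well below the lowest control (log2 fold change -0.97 ± 0.18 (SE), adjusted p = 0.00319). The small subunit gene Sec61b was at 46.99 ± 8.69 against 36.1 ± 8.16 CPM and did not pass (-0.38 ± 0.22 (adjusted p = 0.288)). Over all roles, Dnajc3, Edem1, Hspa13, Hyou1, Sec61a1 and Txndc5 kept their calls in high-fat livers in each of the 18 alternatives run.

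**Figure D3:**
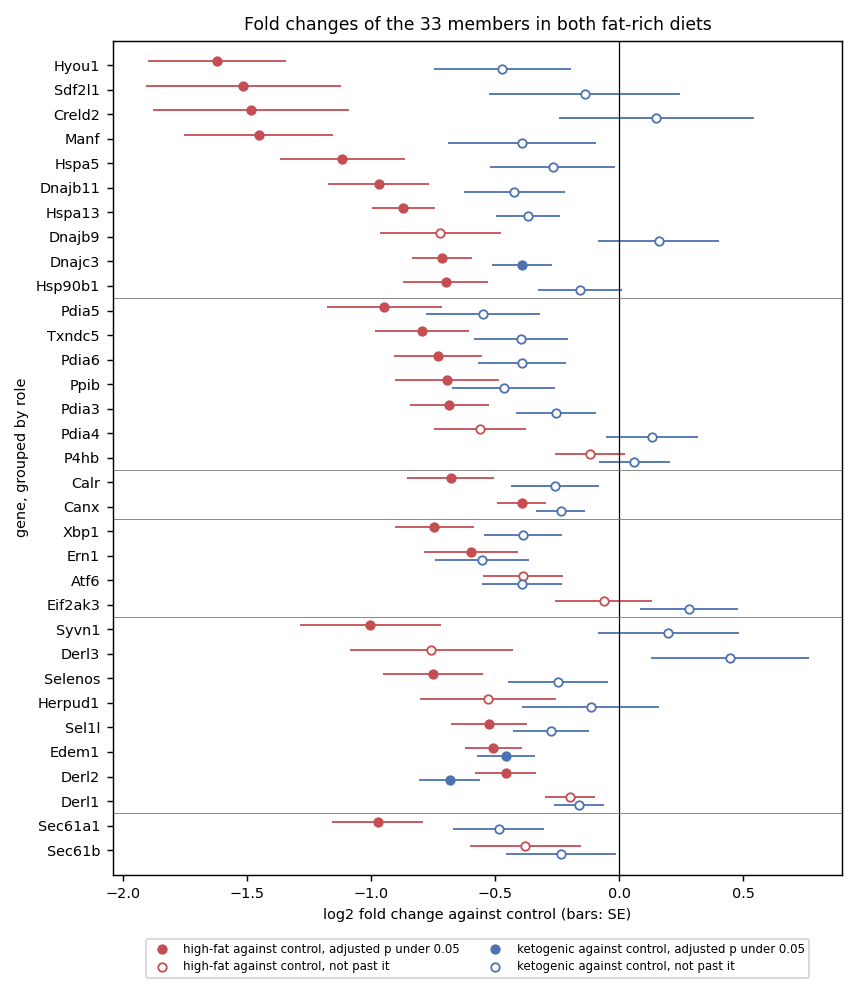
Log2 fold change against control (x axis, bars are SE) of each gene in high-fat (red) and ketogenic livers (blue); filled points passed an adjusted p of 0.05. Red points lie at or left of blue for most genes, and Edem1, Derl2 and Dnajc3 are filled in both.

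In ketogenic livers fewer of the genes passed against control. Of the 33 genes 3 fell and none rose, against 4.6% of all tested genes lower and 7.47% higher, so the share that fell was 9.09%. The 3 were Derl2, Edem1 and Dnajc3. The Derl2 call held in each of the 18 alternatives, and the Edem1 call was lost in 4. At an unadjusted p under 0.05, 12 were lower and none higher, and DESeq2 called 6 lower and none higher (7.22% and 9.34% of all tested genes). The median log2 fold change was -0.27 against 0.031 over all tested genes, and 7 of the 33 lay without overlap below control and none above it, against 5.17% and 7.38% of all tested genes. Leaving out control replicate 2 gave 5 lower and none higher (5.48% and 7.13% of all genes tested then), and leaving out control replicate 4 or 5 gave 1. In the upper range of library numbers 2 fell and none rose (2.18% and 3.28%). The count was 1 with library totals, a scaling that shifts the median gene by 0.177 upward and gives 368 genes lower and 1826 higher in place of 673 and 1093.

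Without ketogenic replicate 5, 2 of the 33 fell and none rose in ketogenic livers, Derl2 and Edem1 being lower, against 5.02% lower and 7.24% higher over all genes tested then. In that setting 7 lay without overlap below control and none above it (6.88% and 9.91%), and the median was -0.21 against -0.017. The chaperones that were lowest in high-fat livers did not pass in ketogenic ones. Hyou1 was at 251 ± 104 CPM (-0.47 ± 0.28 (adjusted p = 0.284)), Manf at 119.7 ± 53.7 CPM (-0.39 ± 0.30 (adjusted p = 0.417)) and Creld2 at 84.4 ± 44.6 CPM (0.15 ± 0.39 (adjusted p = 0.839)). Xbp1 was at 205 ± 24.4 CPM (-0.39 ± 0.16 (adjusted p = 0.124)), Ern1 at 69.7 ± 13.3 CPM (-0.55 ± 0.19 (adjusted p = 0.0678)), Atf6 at 73.9 ± 13.1 CPM (-0.39 ± 0.16 (adjusted p = 0.126)) and Eif2ak3 at 24.7 ± 7.66 CPM (0.28 ± 0.20 (adjusted p = 0.370)). A result past the threshold in one diet and not in the other does not show that the diets differ, and both comparisons use the same control libraries, so the diets were also compared directly.

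In that direct comparison, with all 5 ketogenic libraries, none of the 33 genes passed in edgeR's test, where 0.00684% of all tested genes were higher and 0.0547% lower in ketogenic livers. At an unadjusted p under 0.05, 19 were higher and none lower. DESeq2 called 10 higher and none lower, against 0.424% higher and 0.759% lower over all tested genes. The fitted fold change was above 0 in 31 of the 33, with a median of 0.41 against 0.023 over all tested genes. In none of them were the libraries of both diets without overlap, against 0.875% of all tested genes with ketogenic higher and 0.889% with ketogenic lower. In the upper range of library numbers no gene of any kind passed.

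Leaving out ketogenic replicate 5 changed this. With the other 4 ketogenic libraries 14 of the 33 genes were higher than in high-fat livers and none lower (25 higher and none lower at an unadjusted p under 0.05), against 0.938% higher and 1.25% lower over all genes tested then. In 16 of the 33 every ketogenic library then lay above every high-fat one, and in none below, against 3.47% and 3.17% of all tested genes. All 10 genes that DESeq2 called with every library were among the 14. This library was singled out after its low levels in these same 33 genes were seen. Leaving it out raises the ketogenic levels by that choice, so the counts without it are no independent test of the diets. Leaving out any other single library gave a count of 0.

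The 14 came mostly from the lumenal class, 9 of its 10 members. Hyou1, at 156 CPM or less in every high-fat library and at 231 to 393 CPM in ketogenic replicates 1 to 4, differed by 1.35 ± 0.19 (adjusted p = 0.00215) on the log2 scale. Creld2 differed by 1.86 ± 0.30 (adjusted p = 0.00867), Sdf2l1 by 1.58 ± 0.34 (adjusted p = 0.0300), Manf by 1.25 ± 0.24 (adjusted p = 0.0138), Dnajb9 by 1.05 ± 0.18 (adjusted p = 0.00763) and Hspa5 by 1.01 ± 0.20 (adjusted p = 0.0135). Hsp90b1, Dnajb11 and Hspa13 differed by less (0.65 ± 0.14 (adjusted p = 0.0246), 0.68 ± 0.17 (adjusted p = 0.0474) and 0.59 ± 0.11 (adjusted p = 0.00955)). From the isomerases came Pdia4 (0.83 ± 0.14 (adjusted p = 0.00776)) and Txndc5 (0.55 ± 0.14 (adjusted p = 0.0483)), from the degradation genes Syvn1 (1.39 ± 0.21 (adjusted p = 0.00384)) and Derl3 (1.40 ± 0.25 (adjusted p = 0.00952)), and from the translocon Sec61a1 (0.62 ± 0.14 (adjusted p = 0.0274)). None of the 4 sensor and transcription factor genes was among them, Xbp1 having a difference of 0.42 ± 0.15 (adjusted p = 0.163) and Ern1 one of 0.01 ± 0.19 (adjusted p = 0.985). Derl2 was the only member with a fold change below 0 in this setting, at -0.20 ± 0.12 (adjusted p = 0.453).

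**Figure D4:**
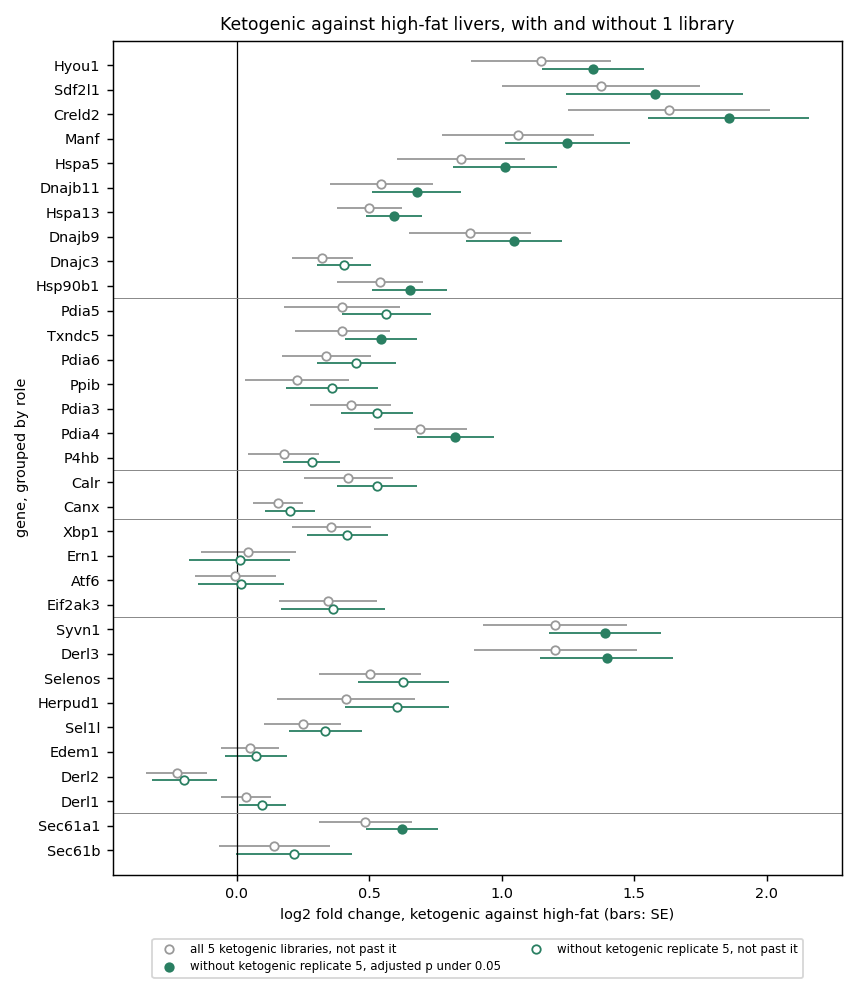
Log2 fold change of ketogenic against high-fat livers (x axis, bars are SE) for each gene, with all 5 ketogenic libraries (grey) and without ketogenic replicate 5 (green); filled points passed an adjusted p of 0.05. No grey point is filled, and 14 green points are, 9 of them lumenal chaperones and cochaperones. Replicate 5 was singled out by its levels in these same genes.

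The spread among libraries was compared between diets. The median coefficient of variation over the 33 was 15.2% in control, 16.3% in high-fat and 24.9% in ketogenic libraries, against 16.3%, 17.1% and 20.9% over all tested genes, and 17.7% in ketogenic libraries without replicate 5, against 17.8% over all tested genes. Creld2 was the most variable in ketogenic livers (52.8%) and Canx the least (8.95%). Among controls, replicate 3 held the lowest level of 19 of the 33 genes, against 25.6% of all tested genes, and replicate 2 the highest of 18, against 34.8%. Among high-fat libraries, replicate 1, with the highest acinar share of its diet (0.0919%), held the highest level of 25, against 24.4%. High-fat replicate 5 had the next acinar share (0.0568%) and held the highest level of 1, against 21.2%, and the lowest of 7, against 25.5%. Ketogenic replicate 2 had the highest acinar share of its diet (0.0454%) and held the highest level of 3, against 10.4%. Ketogenic replicate 4 (0.0024%) held the highest of 18, against 12.9%. The part of acinar RNA in these levels was not tested.

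Beyond the 33 genes, 9 other lists of related machinery were compared with control, chosen with earlier results of these data known. The translocon, signal peptidase and oligosaccharyltransferase list, which holds the entry and N-glycosylation machinery, had 17 of 33 tested genes lower and 1 higher in high-fat livers (median log2 fold change -0.52), and 5 lower and 1 higher in ketogenic ones (median -0.30). Tram1, a helper of translocation, was at -0.94 ± 0.11 (adjusted p = 0.000148) in high-fat and -0.78 ± 0.11 (adjusted p = 0.000396) in ketogenic livers. Ssr3, a subunit of the translocon-associated protein complex, was at -0.62 ± 0.10 (adjusted p = 0.00110), and Stt3a, a catalytic subunit of the oligosaccharyltransferase, at -0.71 ± 0.12 (adjusted p = 0.00151) in high-fat livers. Tram2 was the 1 gene of the list that rose, at 0.67 ± 0.19 (adjusted p = 0.0336) and 0.86 ± 0.19 (adjusted p = 0.00883).

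Of 35 tested genes of ER to Golgi transport, 12 fell and 1 rose in high-fat livers (median -0.24), and 1 fell and none rose in ketogenic ones (median -0.16). The coat gene Sec23b was at -0.91 ± 0.18 (adjusted p = 0.00498) and the cargo receptor gene Tmed3 at -0.97 ± 0.20 (adjusted p = 0.00623) in high-fat livers. Lman1, a lectin cargo receptor for clotting factors, was the 1 that fell in ketogenic livers (-0.62 ± 0.17 (adjusted p = 0.0286)). Glycan processing and degradation genes outside the set of 33 held 6 lower and none higher of 27 in high-fat (median -0.23) and 2 lower and none higher in ketogenic livers (median -0.18). The 2 were Uggt1, the folding sensor that re-glucosylates unfolded glycoproteins (-0.97 ± 0.15 (adjusted p = 0.000914) in high-fat and -0.64 ± 0.15 (adjusted p = 0.0124) in ketogenic), and the glucosidase gene Mogs (-0.88 ± 0.16 (adjusted p = 0.00248) and -0.68 ± 0.16 (adjusted p = 0.0113)).

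Of 36 other ER chaperones and oxidoreductases, 6 fell and 1 rose in high-fat livers (median -0.077), and 4 fell and 1 rose in ketogenic ones (median -0.075), or 4 and 2 without ketogenic replicate 5. Ero1b, one of the oxidases that feed the disulfide isomerases, averaged 105 ± 14.95, 38.2 ± 2.34 and 61.1 ± 13.7 CPM in control, high-fat and ketogenic livers (-1.45 ± 0.15 (adjusted p = 4.09e-05) and -0.78 ± 0.15 (adjusted p = 0.00296)). Its paralog Ero1a was at -0.55 ± 0.12 (adjusted p = 0.00674) and -0.52 ± 0.12 (adjusted p = 0.00883). The membrane thioredoxin gene Tmx4 was at -0.52 ± 0.09 (adjusted p = 0.00234) and -0.71 ± 0.09 (adjusted p = 0.000191), and the pH-dependent retention factor Erp44 at -0.58 ± 0.11 (adjusted p = 0.00396) and -0.43 ± 0.11 (adjusted p = 0.0223).

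Of 13 further sensors and partners, 2 fell and 1 rose in high-fat livers (median -0.14), and 1 fell and none rose in ketogenic ones (median -0.11), or 1 and 1 without ketogenic replicate 5. The shares that fell were 15.4% in high-fat and 7.69% in ketogenic livers, against 5.01% and 4.6% over all tested genes. Nfyb, a subunit of the NF-Y factor that binds the CCAAT part of the ERSE, fell in both diets (-0.41 ± 0.09 (adjusted p = 0.00636) and -0.38 ± 0.09 (adjusted p = 0.00868)). Atf6b, a relative of Atf6, fell in high-fat livers (-0.46 ± 0.13 (adjusted p = 0.0361)) and did not pass in ketogenic ones (-0.13 ± 0.13 (adjusted p = 0.540)). Creb3l3, a liver factor processed like ATF6, was at 0.30 ± 0.16 (adjusted p = 0.245) and 0.51 ± 0.16 (adjusted p = 0.0515), neither past the threshold. Without ketogenic replicate 5 it rose in ketogenic livers (0.62, adjusted p = 0.00203).

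In the PERK arm and the integrated stress response, 3 of 14 fell and none rose in high-fat livers (median -0.14), and 1 rose and none fell in ketogenic ones (median -0.048). Atf4, the transcription factor translated when eIF2-alpha is phosphorylated, was at -0.67 ± 0.17 (adjusted p = 0.0174) in high-fat and -0.36 ± 0.17 (adjusted p = 0.176) in ketogenic livers. Asns, the asparagine synthetase gene that ATF4 activates, was at -2.71 ± 0.65 (adjusted p = 0.0161) in high-fat livers, from 7.17 ± 4.66 to 1.10 ± 0.537 CPM. Trib3, a pseudokinase gene induced by ATF4 and CHOP, rose in ketogenic livers (1.42 ± 0.31 (adjusted p = 0.00672)) and was at 0.85 ± 0.31 (adjusted p = 0.0808) in high-fat ones. Ddit3, the gene of the death-related factor CHOP, did not pass in either (-0.25 ± 0.30 (adjusted p = 0.631) and 0.20 ± 0.30 (adjusted p = 0.701)). Its symbol matched 2 gene IDs, and only the first of these was examined.

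Chaperone genes outside the ER formed the last lists. Of 25 cytosolic chaperone genes, 1 rose and 1 fell in each diet (median -0.13 in high-fat and 0.016 in ketogenic livers). That is 4.0% each way. Over all tested genes 5.01% were lower and 6.95% higher in high-fat livers, and 4.6% and 7.47% in ketogenic ones. The small heat shock protein gene Hspb1 rose in both (1.38 ± 0.42 (adjusted p = 0.0463) and 1.37 ± 0.42 (adjusted p = 0.0477)), and no gene of the list rose in ketogenic livers without replicate 5. The 1 that fell was Tcp1, a chaperonin subunit, in high-fat livers (-0.38 ± 0.11 (adjusted p = 0.0384)) and Hspa2, an HSP70 gene, in ketogenic ones (-0.92 ± 0.21 (adjusted p = 0.00948)), while the constitutive HSP70 gene Hspa8 (-0.19 ± 0.22 (adjusted p = 0.599) and -0.15 ± 0.22 (adjusted p = 0.693)) and the HSP90 gene Hsp90ab1 (0.12 ± 0.15 (adjusted p = 0.661) and 0.22 ± 0.15 (adjusted p = 0.377)) did not pass. Of 12 mitochondrial chaperone and protease genes, 2 rose and none fell in either diet (median 0.036 and 0.16). Those 2 were Grpel2, a nucleotide exchange factor (1.30 ± 0.20 (adjusted p = 0.000884) and 1.24 ± 0.20 (adjusted p = 0.000841)), and Clpx, the unfoldase of a matrix protease (1.44 ± 0.33 (adjusted p = 0.0127) and 1.17 ± 0.33 (adjusted p = 0.0326)). Without ketogenic replicate 5 Clpx did not pass in ketogenic livers (0.97, adjusted p = 0.0802), although 2 genes of the list rose there. The main mitochondrial HSP70 gene Hspa9 did not pass (-0.18 ± 0.11 (adjusted p = 0.341) and -0.04 ± 0.11 (adjusted p = 0.833)). Of the subunits that pair with the P4hb protein, none of 3 tested passed, among them P4ha1 (0.18 ± 0.18 (adjusted p = 0.555) and 0.18 ± 0.18 (adjusted p = 0.559)) and Mttp, which loads lipid onto lipoproteins (-0.07 ± 0.11 (adjusted p = 0.721) and -0.30 ± 0.11 (adjusted p = 0.0941)). Whether any list differed from the 33 genes was not tested.

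**Figure D5:**
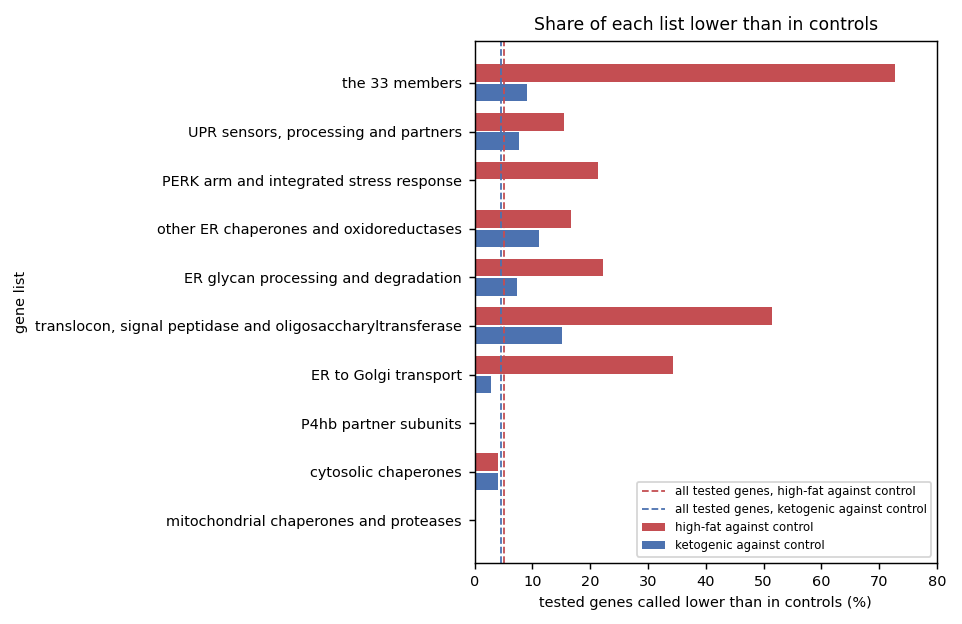
Share of the tested genes of each list that fell against control (x axis, percent, from 0) in high-fat (red) and ketogenic livers (blue); dashed lines are the shares over all tested genes, 5.01% and 4.6%. The 33 genes reach 72.7% in high-fat and 9.09% in ketogenic livers, followed in high-fat livers by the translocon list (51.5%) and ER to Golgi transport (34.3%).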

How the data were processed

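The authors deposited 1 table of raw read counts, whole numbers for each Ensembl gene ID and library. For its making the submitters' processing notes list, with no role or order, build GRCm39, cutadapt 1.16, featureCounts 1.6, STAR 2.7.9a and DESeq2 1.36.0. The libraries are stranded per the labels' protocols; which annotation was counted, whether strand was used and how shared reads were treated is not stated there. Exons of 12 of the 33 genes overlap another gene in an earlier annotation, so reads of both may not be told apart.

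Here, low genes were removed by filterByExpr of edgeR 4.0.16 (count of at least 10, total of at least 15). TMM scaling, estimateDisp, robust glmQLFit and two-sided glmQLFTest (R 4.3.3) followed, with the 3 diets in 1 model and Benjamini-Hochberg adjustment over 14627 genes. The SE is the absolute log2 fold change divided by the square root of F. Alternatives were DESeq2 1.42.0, other scalings, no filter, a block, library number, and each library left out. Scripts were tested on simulated data. Symbols from a gene name table matched 91.39% of IDs; of 202 genes in the other lists 201 matched. Members and lists were chosen with earlier results of these data known. Single-library values are given for the 4 sensor and transcription factor genes and Hspa5. They are also given for the 12 members with the smallest adjusted p for high-fat and up to 8 for each other comparison. Up to 3 genes a list and comparison are named beside 10 fixed ones. Marker shares carry counting error only.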

Additional observations from a re-analysis of the deposited data

Results flagged for a closer look

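Each gene's highest and lowest library within a diet was compared with the others by Dixon's ratio at the 95% level; chance flags about 1 in 20 groups, and 6 of 99 were flagged. Atf6 stood at 66.8 CPM in control replicate 2, against 104.8 to 110.5 in the other controls, and Sec61b at 59.9 CPM in the same library, against 41.1 to 44.2. High-fat replicate 1 was high for Sec61a1 (160.2 CPM against 95.4 to 110.5) and for Txndc5 (227 CPM against 142 to 150.3). Sel1l was low in high-fat replicate 5, at 106 CPM against 139.5 to 151. Hspa13 was low in ketogenic replicate 5, at 28.5 CPM against 39.8 to 43.1 in the other ketogenic libraries and 24.6 to 29.6 in the high-fat ones. In control replicate 1, the library the submitters excluded, pancreatic acinar transcripts made up 2.021% of counts (95% Clopper-Pearson interval 2.015 to 2.027), against 0.0027% to 0.213% in the controls used.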

How the results depend on the processing

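For high-fat against control, the number of the 33 genes that fell was 9 with libraries numbered 13 and above and 14 to 24 when single libraries were left out, and none rose in any alternative. For ketogenic against control, it was 1 with library totals, 6 with DESeq2 and 1 to 5 over left-out libraries. For ketogenic against high-fat, the number that rose was 1 with library totals, 10 with DESeq2 and 0 to 14 over left-out libraries. The other alternatives stayed within 1.5 times the counts of 24, 3 and 0. A replicate block gave 19 lower in high-fat, 2 lower in ketogenic livers and 0 higher in ketogenic against high-fat. The labels do not say what a number shares, and deviations of same-numbered libraries correlated at -0.404 to 0.418, over 0.1 in 3 of 13 pairs, so the numbers were not taken as pairs. Counts over all genes for ketogenic against high-fat were 1 higher and 8 lower, but 62 and 111 with DESeq2 and 135 and 180 without ketogenic replicate 5.

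No log2 fold change of a gene that passed changed sign. With library totals the sign changed for P4hb (0.0082), Eif2ak3 (0.063) and Mttp (0.054) in high-fat livers, for Herpud1 (0.017), Derl1 (0.0004844), Atf6b (0.028) and Hspa9 (0.12) in ketogenic livers and for Atf6 (0.054) between the fat-rich diets. With libraries numbered 13 and above it changed for Sdf2l1 (0.41), Sec61b (0.081) and Atf6b (0.011) in ketogenic livers and Atf6 (0.064) between the diets. Over left-out libraries, ranges that crossed 0 for ketogenic against control were -0.3641 to 0.2226 for Sdf2l1, -0.07275 to 0.359 for Creld2, -0.09708 to 0.3071 for Dnajb9, -0.006941 to 0.2467 for Pdia4, -0.342 to 0.05901 for Herpud1, -0.03017 to 0.3679 for Syvn1, -0.1117 to 0.3993 for Ddit3 and -0.08782 to 0.01854 for Hspa9. The range was -0.1504 to 0.08083 for Eif2ak3 in high-fat against control. For ketogenic against high-fat it was -0.09494 to 0.07026 for Atf6, -0.04993 to 0.1347 for Ern1, -0.01215 to 0.09666 for Derl1 and -0.01156 to 0.2784 for Sec61b. The causes were not tested. The 4 or 5 libraries of a diet limit what can pass, and a gene that did not pass may still differ.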
